A study of Mus musculus with 15 samples.

Results

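Genes of cholesterol and fatty acid synthesis were examined in mouse embryonic fibroblasts (MEFs) treated by 1 of 4 cytokines or left untreated. The members were a list of 29 genes chosen by function, with earlier results of these data known. The probes of each gene were those whose RefSeq transcript identifier belongs to it. A probe was found for 28 of the 29 genes, among 23462 genes named on the arrays. No probe was matched for Acat2, the cytosolic thiolase that makes acetoacetyl-CoA, and it has no value here. The 28 genes held 45 probes, and each gene is represented by its probe with the highest mean over the 15 arrays. All 28 probes were well above background on all 15 arrays. They fall into 17 enzymes of sterol synthesis, 4 genes of sterol regulation and transport, and 7 genes of fatty acid synthesis and desaturation.

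The cells were Balb/c/3T3 clone A31 fibroblasts, an immortalised MEF line that is 1 clone, so each group samples cultures of that line and not animals. Each of the 5 groups held 3 arrays: untreated controls, MEFs treated by TNFα (10 ng/ml), by TGFß1 (5 ng/ml), by IL-1β (1 ng/ml), and by IL-6 (20 ng/ml) given with its soluble receptor sIL-6Rα (25 ng/ml). The time in culture is given in the labels as 24 or 72 h without a group. By the study's text, control, TNFα and TGFß1 arrays came from the shorter time, and the time of the IL-1β and IL-6 groups is not stated there. A figure legend of the study describes the control, TNFα and TGFß1 arrays as 3 independent experiments and does not mention the IL-1β or IL-6 arrays. The labels do not tell which arrays of different groups share an experiment, so the tests measure the spread between these arrays. Arrays are called by the number that opens their label, and values are listed in this order: control 1, 6 and 11, TNFα 4, 9 and 14, TGFß1 2, 7 and 12, IL-1β 5, 10 and 15, IL-6 3, 8 and 13.

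Cholesterol is built from acetyl-CoA through the mevalonate pathway to squalene, which is closed into a ring and trimmed to cholesterol by a chain of endoplasmic reticulum enzymes. Fatty acids are built from the same acetyl-CoA by ACLY, ACC and fatty acid synthase and are then elongated and desaturated. Most of these genes are known targets of the SREBP transcription factors, which are held in the endoplasmic reticulum by INSIG when sterols are plentiful and are released to the nucleus when sterols run low.

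Between 48.3% and 54.8% of the 56605 probes were well above background on an array. The arrays lay on 2 slides, with control 1 and 11, TNFα 14, TGFß1 7, IL-1β 5 and 10 and IL-6 3 and 8 on slide 1. Arrays of a group correlated at 0.990 to 0.995 within a slide and at 0.977 to 0.985 between slides. The difference within each slide is therefore given for TNFα and TGFß1 against control and for the comparisons with TGFß1. All 10 fibroblast markers were well above background on all 15 arrays, while Ptprc, Adgre1, Lyz2 and Fcgr1 of 8 macrophage markers and 5 of 6 endothelial markers were on none. The other macrophage markers, Cd68, Csf1r, Itgam and Cd14, were well above background on all 15 arrays. Cytokine-responsive genes moved with their treatments: Ccl5, a chemokine, differed by 8.36 (log2) after TNFα, Ccn2, a matrix protein, by 3.08 after TGFß1, Saa3, an acute phase protein, by 7.43 after IL-1β, and Socs3, a feedback inhibitor of cytokine signalling, by 2.39 after IL-6 with sIL-6Rα.

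The sterol synthesis enzymes were lower in MEFs treated by TNFα than in controls in 16 of 17 cases. Of the 28 members, 19 were called lower and 0 higher, a call being a q-value below 0.05 with a fold-change of at least 1.5, in a limma fit of all 15 arrays. Of all 29256 probes tested, 5.96% were called lower in this comparison, 4.09% higher and 10.1% in either direction. The 19 comprised 16 of the 17 sterol enzymes, Insig1, Stard4 and Scd2, and 10 of them passed a fold-change of 2. The median log2 fold-change was -1.01 over the 17 sterol enzymes and -0.47 over the 7 fatty acid members, against 0.04 over all probes tested. All 28 differences from control were negative, or all but Fasn with the slide as a block, and for 24 members the 3 TNFα arrays all lay below the 3 control arrays, as they did for 15.9% of all probes tested. In cultures lysed whole, fewer cells of a type and less RNA per cell cannot be told apart.

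**Figure D1:**
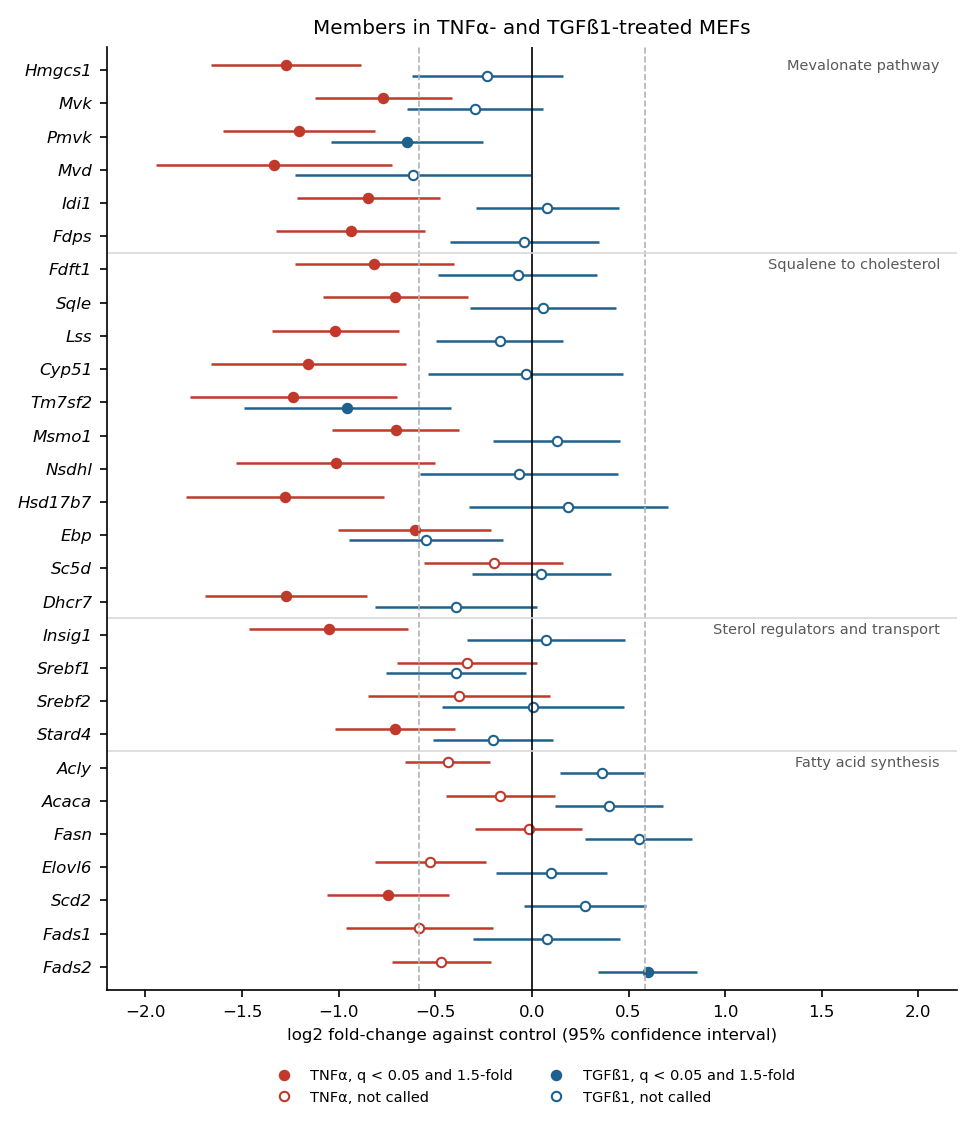
Log2 fold-change against control for the 28 members in MEFs treated by TNFα (red) or TGFß1 (blue), with bars for the 95% confidence interval of the limma fit, filled points for called members and dashed lines at a fold-change of 1.5. The red points of the sterol enzymes lie left of the blue ones, from -1.33 for Mvd to -0.20 for Sc5d, and the fatty acid members Acly, Acaca, Fasn and Fads2 have blue points to the right of 0.

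All 6 measured enzymes of the mevalonate pathway fell after TNFα. Hmgcs1, the synthase that makes HMG-CoA, read 6.49, 6.33 and 6.40 in controls and 4.91, 5.33 and 5.16 after TNFα (log2 signal relative to the 75th percentile of the array, the scale of all levels here). Mvd, the decarboxylase that yields isopentenyl diphosphate, read 2.96, 2.49 and 3.02 in controls and 1.17, 1.46 and 1.84 after TNFα. In both genes every TNFα array lay below every control array. The log2 fold-change was -1.27 (SE 0.18, q = 0.0006005) for Hmgcs1 and -1.33 (SE 0.28, q = 0.008207) for Mvd, the largest fall among the members. Pmvk, the second of the mevalonate kinases, fell from 5.06, 5.13 and 5.26 to 3.71, 4.14 and 3.98, a log2 fold-change of -1.21 (SE 0.18, q = 0.0009325). The smallest fall of the 6 was that of Mvk, the first kinase, at -0.77 (SE 0.16), with Idi1, the isomerase, at -0.85 (SE 0.17) and Fdps, which joins isoprene units to farnesyl diphosphate, at -0.94 (SE 0.18).

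Of the 11 enzymes from squalene synthase onward to cholesterol, 10 fell. Hsd17b7, a keto-reductase of the demethylation steps, read 4.42, 4.85 and 4.77 in controls and 3.26, 3.76 and 3.19 after TNFα. Dhcr7, which reduces the last double bond to give cholesterol, read -0.60, -0.03 and -0.41 in controls and -1.77, -1.26 and -1.81 after TNFα. Tm7sf2, a sterol reductase acting after lanosterol demethylation, read 3.13, 3.67 and 3.70 in controls and 1.98, 2.44 and 2.37 after TNFα. None of these 3 genes overlapped between the groups. Their log2 fold-changes were -1.28 (SE 0.24, q = 0.003778), -1.27 (SE 0.19, q = 0.001003) and -1.24 (SE 0.25, q = 0.006099). Cyp51, the lanosterol demethylase, fell by 1.16, Lss, which closes the sterol ring, by 1.02, and Nsdhl, a dehydrogenase of the demethylation steps, by 1.01 on the log2 scale.

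Smaller falls were those of Fdft1, the squalene synthase, at -0.81, and Sqle, the squalene epoxidase, at -0.71. Msmo1, a methyl oxidase, differed by -0.71 and Ebp, a sterol isomerase, by -0.61. Ebp was the least secure call (q = 0.0481): it was called in 12 of 28 alternative settings, and with the slide as a block its log2 fold-change was -0.50, under the fold criterion. Sc5d, the desaturase before the last step, was the sterol enzyme that was not called. It read 3.61, 3.36 and 3.59 in controls and 3.05, 3.48 and 3.43 after TNFα, overlapping, with a log2 fold-change of -0.20 (95% interval -0.56 to 0.16, q = 0.4995). Leaving out TNFα 4, the array with the lowest mean over the sterol enzymes, ended the calls of Fdft1, Sqle, Msmo1 and Nsdhl as well as Ebp. Leaving out control 11 ended that of Sqle, and leaving out control 6 or TNFα 14 that of Nsdhl. Leaving out any 1 of the 15 arrays left 14 to 19 members lower and 0 higher.

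**Figure D2:**
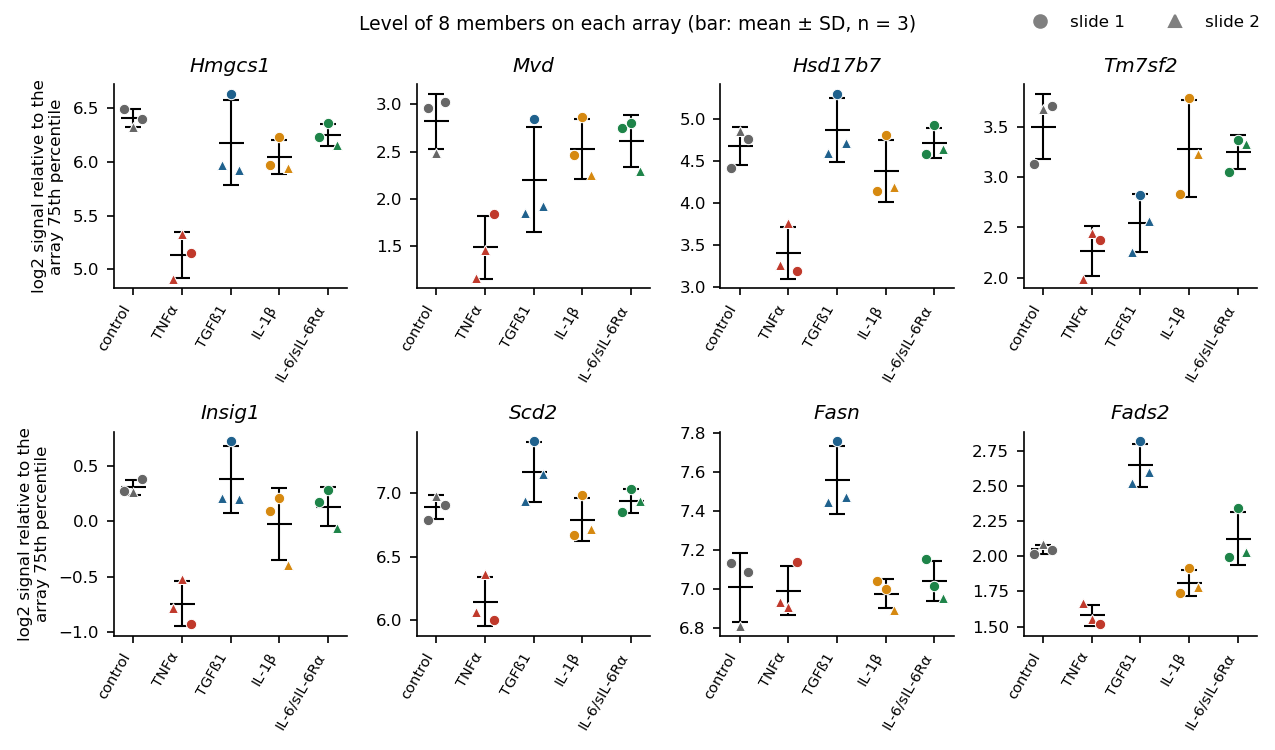
Level of 8 members on each of the 15 arrays (log2 signal relative to the array's 75th percentile), as circles for slide 1 and triangles for slide 2, with the mean and SD of each group of 3. The TNFα arrays lie below all control arrays in Hmgcs1, Mvd, Hsd17b7, Tm7sf2, Insig1, Scd2 and Fads2 but not in Fasn, and the TGFß1 arrays lie above all control arrays in Fasn and Fads2.

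Among the regulators, the 2 genes called lower after TNFα were Insig1, whose protein retains SREBP in the endoplasmic reticulum, and Stard4, a soluble carrier of cholesterol. Insig1 read 0.28, 0.26 and 0.38 in controls and -0.78, -0.52 and -0.93 after TNFα, without overlap, and its log2 fold-change was -1.05 (SE 0.19, q = 0.003088). Stard4 differed by -0.71 (SE 0.14, q = 0.006329). Its second probe, with a difference of -0.33 (q = 0.08754), was not called, nor was Stard4 in the mean of both probes or in a fit of the compared groups alone. The genes of the SREBP factors themselves were not called. Srebf1, which encodes the form tied mainly to fatty acid genes, differed by -0.34 (95% interval -0.70 to 0.03, q = 0.2283), and Srebf2, which encodes the form tied mainly to sterol genes, by -0.38 (95% interval -0.85 to 0.10, q = 0.3079). These intervals do not exclude a fall of the size called in other members.

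Fatty acid members differed less from control. Scd2, a stearoyl-CoA desaturase, was the 1 called: it read 6.79, 6.98 and 6.91 in controls and 6.07, 6.37 and 6.00 after TNFα, a log2 fold-change of -0.75 (SE 0.15, q = 0.005207). Fads1 and Fads2, the desaturases of polyunsaturated fatty acids, differed by -0.58 (q = 0.047) and -0.47 (q = 0.02165), Elovl6, an elongase, by -0.53 (q = 0.0206), and Acly, which makes cytosolic acetyl-CoA, by -0.44 (q = 0.0141). These 4 genes passed the q-value threshold with no overlap between groups but stayed under the fold criterion. Fasn, the fatty acid synthase, read 7.13, 6.81 and 7.08 in controls and 6.93, 6.90 and 7.14 after TNFα. Its log2 fold-change was -0.02 (95% interval -0.29 to 0.26, q = 0.9491), a range that does not reach a 1.5-fold fall. Acaca, the acetyl-CoA carboxylase of this branch, differed by -0.16 (95% interval -0.44 to 0.12, q = 0.472), and the sign of 1 of its 3 other probes was positive.

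The TNFα differences held within each slide. The median over the 17 sterol enzymes was -1.04 on slide 1, where 1 TNFα array met 2 controls, and -1.05 on slide 2, where 2 TNFα arrays met 1 control. All members but Fasn were negative on both slides, and Fasn was 0.03 and 0.11. Of the 17 further probes of the members, 16 had the same call and 16 the same sign as the probe that represents the gene. None of the 16 cell cycle genes listed for comparison was called in either direction after TNFα or TGFß1. Adipocyte markers moved with both treatments: their summed signal, in multiples of the array's 75th percentile, was 83.7 to 136 on control, 53.8 to 108 on IL-1β, 66.5 to 123 on IL-6, 16.7 to 17.7 on TNFα and 26.8 to 31.4 on TGFß1 arrays. The sum adds unlogged signals, so it rests mostly on Lpl and Pparg, with control means of 6.04 and 4.38 (log2), followed by Fabp4 at 2.34. Of the 10 adipocyte markers 5 were well above background on all 15 arrays and each of the 10 on at least 1. Of 9 tested, 8 fell after TNFα and 4 after TGFß1. Epithelial markers, of which Cdh1 and Krt5 were well above background on no array, summed to 2.19 to 2.88 on control, 0.590 to 1.03 on IL-1β, 1.91 to 2.34 on IL-6, 0.107 to 0.122 on TNFα and 0.322 to 0.736 on TGFß1 arrays. Of the 3 tested, Krt15 was called lower after both treatments and Krt8 higher after TGFß1, while Krt18 was not called. The sum over the 8 macrophage markers was 10.8 to 22.4 on control, 11.7 to 24.8 on IL-1β, 11.4 to 23.8 on IL-6, 12.7 to 23.8 on TNFα and 12.6 to 21.5 on TGFß1 arrays. Of the 4 tested, Cd14 rose by 0.79 after TNFα (q = 0.003014) and none was called after TGFß1. Of the 10 fibroblast markers, 1 was called higher and 3 lower after TNFα, and 3 higher and 2 lower after TGFß1. Their sum was 1181 to 1431 on control, 1163 to 1640 on IL-1β, 1233 to 1485 on IL-6, 970 to 1188 on TNFα and 1324 to 1681 on TGFß1 arrays. The part of all these markers in the members' differences was not tested.

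In the heat map of all members, the TNFα columns lie below the other 12 arrays in most sterol rows. In Tm7sf2, Nsdhl, Ebp and Sc5d they overlap with other arrays. In the TGFß1 columns the mean over the 7 fatty acid rows is positive, at 0.21, 0.53 and 0.27, while that over the sterol rows is negative on 2 of the 3 arrays.

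**Figure D3:**
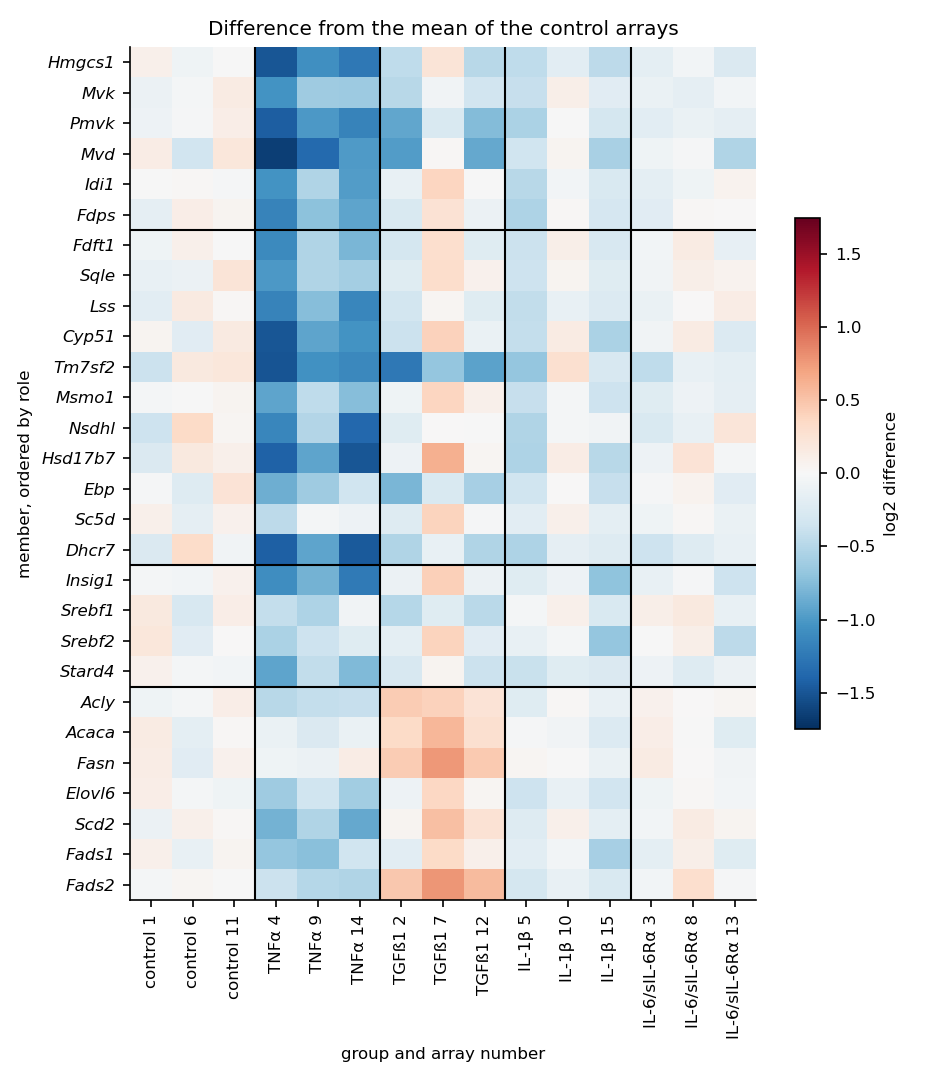
Log2 difference of each of the 28 members (rows, by role) from the mean of the 3 control arrays, on all 15 arrays (columns, by group and array number), with blue for lower and red for higher. The TNFα columns are blue through the sterol block, with a mean over the 17 enzymes of -1.20, -0.74 and -0.95, and the TGFß1 columns are red in most of the fatty acid block.

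The promoters of 4 members are shown because the sterol enzymes fell together after TNFα while Fasn did not: Hmgcs1, Mvd and Hsd17b7, among the largest falls, and Fasn. Each line gives the 250 bases before the annotated transcription start from RefSeq (GRCm38.p6), 5′ to 3′ on the gene's strand, and capitals mark CCAAT, the letters of the NF-Y box, or a sterol regulatory element core spelled TCACNCCAC, on either strand.
Hmgcs1 (chr13:119690101-119690350, plus strand): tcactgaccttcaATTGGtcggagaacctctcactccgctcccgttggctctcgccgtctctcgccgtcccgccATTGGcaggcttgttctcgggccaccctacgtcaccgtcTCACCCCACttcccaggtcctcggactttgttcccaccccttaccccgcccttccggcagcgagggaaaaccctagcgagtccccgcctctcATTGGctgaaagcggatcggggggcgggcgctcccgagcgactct
Mvd (chr8:122443423-122443672, minus strand): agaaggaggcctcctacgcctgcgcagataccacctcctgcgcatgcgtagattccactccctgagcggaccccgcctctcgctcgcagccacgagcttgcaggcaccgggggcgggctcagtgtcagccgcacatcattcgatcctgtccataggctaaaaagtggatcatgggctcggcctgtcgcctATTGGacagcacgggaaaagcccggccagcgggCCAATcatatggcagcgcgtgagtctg
Hsd17b7 (chr1:169969206-169969455, minus strand): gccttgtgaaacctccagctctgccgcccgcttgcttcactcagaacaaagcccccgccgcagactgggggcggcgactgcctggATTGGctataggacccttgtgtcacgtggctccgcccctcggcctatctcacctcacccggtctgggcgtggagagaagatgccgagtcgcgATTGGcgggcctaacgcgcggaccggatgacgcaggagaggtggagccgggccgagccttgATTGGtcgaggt
Fasn (chr11:120824548-120824797, minus strand): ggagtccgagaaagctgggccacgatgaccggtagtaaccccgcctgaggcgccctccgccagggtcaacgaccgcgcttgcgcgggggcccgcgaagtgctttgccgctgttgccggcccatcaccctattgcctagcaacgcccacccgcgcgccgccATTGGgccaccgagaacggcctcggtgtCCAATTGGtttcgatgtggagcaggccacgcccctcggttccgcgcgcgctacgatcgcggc
Only the Hmgcs1 promoter held the sterol core, at position -137 from the start. RefSeq promoters of 300 bases (250 before to 50 after the start) were found for 23 of the 29 listed genes, and 1 of them held this core, against 1.44% of 27025 genes with a promoter in the table. SREBP is known to bind many variants of this element, and the absence of these letters says nothing about other spellings. CCAAT stood in a promoter of all 14 sterol enzymes with an entry and of 2 of 5 fatty acid members, Acly and Fasn, against 41.1% of all genes. The GC box GGGCGG, searched on both strands, stood in 13 of the 14 sterol enzymes and 2 of the 5 fatty acid members, against 38.2% of all genes. The palindrome CACGTG stood in 3 of the 14 and 0 of the 5, against 8.09%. These are matches of letters and not measured sites, and Sc5d, which was not called after TNFα, held CCAAT as well.

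After TGFß1, 2 of the 17 sterol enzymes were lower than in controls and 1 of the 7 fatty acid members was higher. Of the 28 members, 1 was called higher and 2 lower, where 7.52% of all probes tested were called higher and 10.4% lower in this comparison, so the members' shares were below those of all probes. The median log2 fold-change was -0.07 over the 17 sterol enzymes and 0.36 over the 7 fatty acid members, against 0.07 over all probes. All 7 fatty acid members had positive differences, and the TGFß1 arrays lay above all control arrays in 4 of them, as they did in 19.9% of all probes tested. These medians moved with the scaling: under quantile normalization they were -0.26 for the sterol enzymes, with 16 of 17 negative, and 0.12 for the fatty acid members, with 6 of 7 positive.

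Fads2 was the member called higher. It read 2.02, 2.08 and 2.04 in controls and 2.52, 2.82 and 2.60 after TGFß1, a log2 fold-change of 0.60 (SE 0.12, q = 0.003418), close to the 1.5-fold criterion. It was not called under quantile normalization, normexp correction or the 75th percentile of detected probes, and its second probe, which differed by 0.38 (q = 0.3078), was not called. Fasn read 7.45, 7.76 and 7.47 after TGFß1, above its 3 control arrays. Its log2 fold-change was 0.55 (SE 0.13, q = 0.007905), just under the criterion, and 0.62 (q = 0.0001793) with the slide as a block, where it was called. Acaca differed by 0.40 (SE 0.13, q = 0.0398) and Acly by 0.36 (SE 0.10, q = 0.0209), both without overlap but under the fold criterion. Scd2 at 0.28 (q = 0.1921), Elovl6 at 0.10 and Fads1 at 0.08 were not called.

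The members called lower after TGFß1 were Tm7sf2 and Pmvk. Tm7sf2 read 2.25, 2.82 and 2.56, below its 3 control arrays, a log2 fold-change of -0.96 (SE 0.25, q = 0.01439), and its second probe gave -0.95 (q = 0.005271). Pmvk read 4.24, 4.89 and 4.39, a log2 fold-change of -0.65 (SE 0.18, q = 0.02138). Both were also lower after TNFα, in a comparison with the same control arrays. Ebp differed by -0.55 (q = 0.0464) and Mvd by -0.62 (q = 0.1341), and neither was called. Hsd17b7, with 4.59, 5.30 and 4.71, had the highest TGFß1 difference of the sterol enzymes at 0.19 (95% interval -0.33 to 0.70). Lss at -0.17 was not called, but 1 of its 2 other probes was, at -0.70 (q = 0.0298).

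The sterol enzymes read higher on 1 of the TGFß1 arrays. Array TGFß1 7, the 1 array of its group on slide 1, was the highest of the 3 in all 17 sterol enzymes, and the median over the 17 enzymes was 0.19 on slide 1 and -0.38 on slide 2. Without TGFß1 7, 4 members were called lower and 0 higher. Without TGFß1 2 or control 11 the counts were 0 lower and 2 higher, and without TGFß1 12 they were 1 lower and 2 higher. The fatty acid median was 0.49 on slide 1 and 0.38 on slide 2, with positive differences for all 7 members on both.

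**Figure D4:**
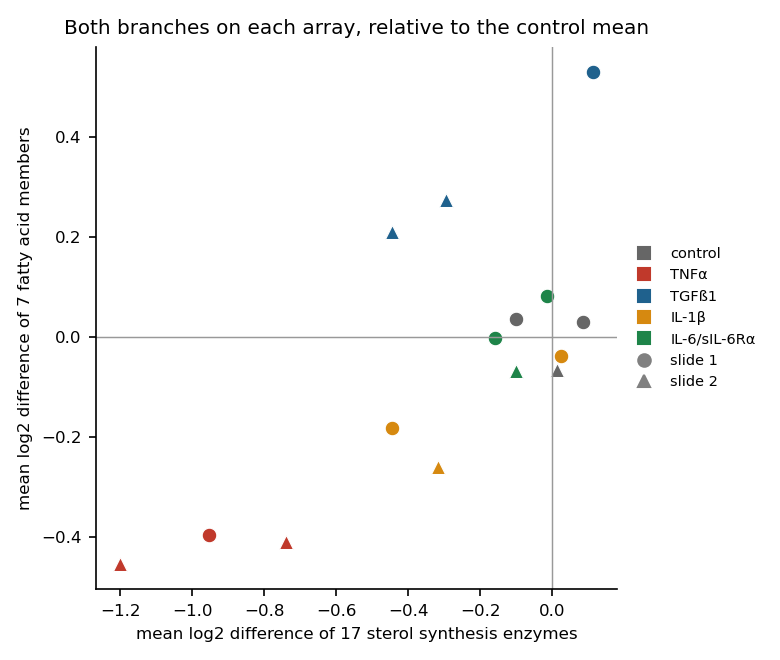
Mean log2 difference from the control mean over the 17 sterol synthesis enzymes (horizontal) and over the 7 fatty acid members (vertical) on each of the 15 arrays, with colour for the group and shape for the slide. The TNFα arrays sit at the lower left, from -1.20 to -0.74 for the sterol enzymes, and the TGFß1 arrays at the top, from 0.21 to 0.53 for the fatty acid members.

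Set directly against each other, 17 members were lower after TNFα than after TGFß1 and 0 higher, where 5.18% of all probes were called lower and 6.60% higher. They comprised 11 of the 17 sterol enzymes, Insig1, and 5 of the 7 fatty acid members. The largest difference was that of Hsd17b7 at -1.47 (SE 0.24, q = 0.0009512), followed by Cyp51 at -1.13, Insig1 at -1.12, Fads2 at -1.07 and Hmgcs1 at -1.04. Scd2 differed by -1.02 (q = 0.0003694) and Acly by -0.80 (q = 0.0001549), and Elovl6, Fads1 and Fads2 were called as well. Fasn at -0.57 (q = 0.008309) and Acaca at -0.56 (q = 0.009819) passed the q-value threshold alone, while another Acaca probe was called at -0.64 (q = 0.003652). Second probes of Acly, Fads1 and Fdft1 were not called. Tm7sf2 at -0.28 (q = 0.5454) and Ebp at -0.06 (q = 0.9026) overlapped between the 2 treatments. Mvk, Pmvk, Mvd, Sc5d, Srebf1, Srebf2 and Stard4 were not called either. With the slide as a block Mvd was called too, at -0.72 (q = 0.00272). The median over the 17 sterol enzymes was -1.12 on slide 1 and -0.69 on slide 2. The comparison of TNFα with TGFß1 shares its arrays with both comparisons above.

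No member was called in either direction after IL-1β or after IL-6 with sIL-6Rα by limma, and no member had an unadjusted p below 0.05. Of all probes, 0.243% were called after IL-1β in either direction (0.00684% lower), and 0.0581% after IL-6. After IL-1β all 28 differences were negative (26 to 28 without any 1 array), with a median of -0.27, and the largest was that of Hmgcs1, which read 5.97, 6.23 and 5.94 against 6.49, 6.33 and 6.40 in controls. Its log2 fold-change was -0.36 (SE 0.18, adjusted p = 1). Besides Hmgcs1, the IL-1β and control arrays did not overlap in Idi1, Insig1, Stard4, Elovl6 and Fads2, so that IL-1β lay below control in 6 of the 28 members, against 2.17% of all probes tested. With slide and run of label numbers as blocks, Srebf2 at -0.28 had a q-value of 0.0384 but stayed under the fold criterion. After IL-6 the differences ran from -0.25 for Tm7sf2 to 0.08 for Fads2, with a median of -0.06.

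Against TNFα, 11 members were higher after IL-1β and 16 after IL-6, and 0 were lower in either. Of all probes, 3.01% were called higher and 1.69% lower after IL-1β (4.70% in all), and 5.14% higher and 3.45% lower after IL-6 (8.60% in all). Hmgcs1 was higher by 0.91 (q = 0.01104) after IL-1β and by 1.12 (q = 0.001581) after IL-6, Dhcr7 by 0.96 (q = 0.01211) and 1.04 (q = 0.004189), and Hsd17b7 by 0.98 (q = 0.03096) and 1.32 (q = 0.003334). The others were Pmvk, Lss, Cyp51, Tm7sf2, Insig1, Scd2, Mvk and Fdps in both, and Mvd, Idi1, Fdft1, Sqle and Nsdhl after IL-6. With the slide as a block, 12 members were called higher after IL-1β than after TNFα, where 3.56% of all probes were called higher and 2.63% lower. Mvd at 0.85 (q = 0.003559) and Nsdhl at 0.91 (q = 0.01836) were called there, and Mvk at 0.57 (q = 0.04408) fell under the fold criterion. Adding the run of label numbers as a block gave the same 3 changes, where 5.75% of all probes were called higher and 4.76% lower. Of the 17 further probes of the members, 14 had the same call as the representing probe for IL-1β against TNFα and 16 for IL-6 against TNFα. The IL-1β count rested on single arrays: it was 0 without IL-1β 10 or TNFα 4, 2 without TNFα 14, 6 without IL-1β 15, and 7 without control 1, control 11, TGFß1 12, IL-6 3, IL-6 8 or IL-6 13. The IL-6 count was 10 without IL-6 8 or TNFα 4. Exposure times of IL-1β and IL-6 may differ from that of TNFα, and time and cytokine cannot then be told apart.

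Against TGFß1, Fads2 was lower after IL-1β at -0.83 (q = 0.0004136; 6.70% of probes were called lower) and Tm7sf2 higher by 0.73 (q = 0.0489; 10.3% called higher). The Tm7sf2 call held without control 1, IL-1β 5 or TGFß1 7 and was lost without any other array, while that of Fads2 held without any 1 array. No member was called after IL-6 against TGFß1 by the probe that represents it, where 9.69% of probes were called higher and 6.58% lower. In that comparison 8 members had an unadjusted p below 0.05 by limma. The share of all probes below it is not given here, so this count is not read as a result. Of the 17 further probes of the members, 16 had the same call as the representing probe, after IL-1β as after IL-6. The remaining further probe was thus called after IL-6 against TGFß1. With the slide as a block Fasn was called lower than after TGFß1 in both, at -0.66 after IL-1β and -0.59 after IL-6. In that fit 9.16% of all probes were called lower in each of these 2 comparisons. With slide and run as blocks, 1 member was called higher and 1 lower after IL-6 than after TGFß1. Of all probes, 11.4% were called higher and 10.2% lower there, so the members' shares were below those of all probes. The median difference from TGFß1 over the 17 sterol enzymes was -0.43 on slide 1 and -0.01 on slide 2 after IL-1β. After IL-6 it was -0.25 and 0.21, and 5 of the 17 enzymes had the same sign on both slides. IL-1β and IL-6 did not differ by call in any member, where 0.400% of all probes were called. Between them 1 member had an unadjusted p below 0.05 by limma, again without the share of all probes beside it.

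The sterol enzymes moved as a block from array to array. Relative to the control mean, the average over the 17 enzymes was -1.20, -0.74 and -0.95 on the TNFα arrays, -0.45, 0.11 and -0.30 on the TGFß1 arrays, -0.45, 0.02 and -0.32 on the IL-1β arrays, and -0.16, -0.01 and -0.10 on the IL-6 arrays. Arrays 9, 7, 10 and 8, which carry the label numbers of 1 run (6 to 10), were each the highest of its own treated group, while control 6 at 0.01 lay between control 1 at -0.10 and control 11 at 0.09. With group means removed, the median Pearson's r over the 136 pairs of sterol enzymes across the 15 arrays was 0.78, against 0.07 over all genes tested, 0.33 over the 21 pairs of fatty acid members, and 0.48 over the 119 pairs of a sterol enzyme with a fatty acid member. With the slide removed as well, it was 0.89 for the sterol enzymes, 0.07 for the fatty acid members and 0.43 for the pairs between them. These pairs share the same RNA, slide and scaling on each array, and the values describe these 15 arrays. Across the 5 groups, 23 of the 28 members had a q-value below 0.05 in the limma F test, against 25.0% of all probes, and the exceptions were Ebp, Sc5d, Srebf1, Srebf2 and Fads1. With the slide as a block it was 27 of the 28, all but Sc5d, against 37.4% of all probes.

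Genes around the pathway that are not members were described from lists, beside 4.09% of all probes called higher and 5.96% lower after TNFα, and 7.52% higher and 10.4% lower after TGFß1. Of 13 genes of SREBP control, including Scap and the proteases that release SREBP, 1 was lower after TNFα and 2 after TGFß1, with none higher. Nr1h3, the sterol-sensing receptor LXR alpha, fell by 1.51 after TNFα (q = 0.002571) and by 1.98 after TGFß1 (q = 0.000231), and Insig2, which like Insig1 retains SREBP, fell by 0.77 after TGFß1. Of 26 further genes of sterol and lipid synthesis, 1 was higher and 9 lower after TNFα, and 2 were higher and 5 lower after TGFß1. Acss2, which makes acetyl-CoA from acetate, fell by 2.24 after TNFα and by 1.90 after TGFß1. Acsl1, which activates long-chain fatty acids, fell by 1.12 and 1.66. Elovl7, an elongase, rose by 3.38 after TNFα (q = 0.000103) and by 1.41 after TGFß1. Lpin1, a phosphatidate phosphatase, fell by 1.53 after TGFß1 and by 1.02 after TNFα (q = 0.03602).

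Of 18 tested genes of sterol uptake, storage, export and oxysterols, 3 were higher and 1 lower after TNFα, and 1 higher and 3 lower after TGFß1. Ch25h makes an oxysterol known to block SREBP release. In controls it read -1.53 to 0.24, after TNFα 4.03 to 4.49, and after TGFß1 -3.36 to -2.24. The groups did not overlap, and the log2 fold-changes were 5.06 (SE 0.55, q = 8.589e-05) after TNFα and -2.19 (SE 0.55, q = 0.01244) after TGFß1. After IL-1β it read 1.29 to 2.27, above all 3 controls, but was not called (log2 fold-change 2.52, q = 0.1349). Lipa, the lysosomal lipase that frees cholesterol from its esters, rose by 1.37 after TNFα (q = 0.006189) and fell by 0.94 after TGFß1 (q = 0.02651). Abca1, the cholesterol exporter, fell by 2.55 after TGFß1 (q = 0.003131) and was well above background on 2 of the 3 TGFß1 arrays. Of 17 tested genes of fatty acid oxidation, 5 were lower after TNFα, and 3 were lower and 1 higher after TGFß1. Cpt1a, an enzyme needed for the entry of long-chain fatty acids into mitochondria, fell by 1.74 after TNFα and by 1.82 after TGFß1. After IL-1β and IL-6 no gene of these lists was called against control.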

How the data were processed

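Total RNA of 15 cultures was labelled with Cyanine 3 and hybridised by the authors to 1-colour Agilent arrays of 60-base probes, and the spots were quantified with Agilent Feature Extraction 10.7.3.1 (per the submitters' processing notes). The deposited scanner files hold, per spot, the processed signal intensity (after background subtraction and detrending by the software), the median signal and background intensity and quality marks, with no normalization between arrays. The value table of the series repeats the processed signals exactly and was not used further.

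Groups came from the labels. After removal of outlier-marked spots, a probe's log2 values were averaged across its spots, and each array was centred on the 75th percentile of its non-control probes. Probes well above background (at least 0.5 of their spots) on every array of at least 1 group were tested, 29256 in all. Probes were named through RefSeq accessions of GRCm38.p6 (33767 of 56605 probes). Python 3.11.15 with pandas 2.3.3 and R 4.3.3 with limma 3.58.1 were used. One linear model per probe was fitted over the 15 arrays with no covariate, with 10 moderated two-sided comparisons, and q-values are Benjamini-Hochberg values across the 29256 probes. The fit was tested on simulated data with known changes in the TNFα group and independent noise on each array. That simulation held no slide or run effects and does not cover them. The number of arrays limits the precision.

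The members and lists were chosen with earlier results of these data known. All members are named, and of each further list at most the 4 largest called changes per comparison. Levels of different probes were not compared with each other, except for their weight in a marker sum. The label numbers form 3 runs of 5. With group and slide removed, all 30 array pairs that share a run but not a group correlated at over 0.1 (0.114 to 0.672). Of 60 pairs of different runs, 2 did. Fits with the slide, and with slide and run, as blocks therefore stand beside the unblocked one. Values with the slide as a block are printed where they change a call, and the fit with both blocks is reported mainly as counts. Alternatives were other background corrections, scalings, dim-probe filters, slide and run blocks, a fit of only the compared groups, an intensity trend in the variance prior, the mean over a gene's probes, other fold criteria, and each array left out in turn.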

Additional observations from a re-analysis of the deposited data

How the results depend on the processing

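Of the 10 comparisons, the member counts of TNFα against control, TNFα against TGFß1, IL-1β against control, IL-6 against control and IL-1β against IL-6 stayed within 1.5 times under the alternatives that kept all arrays, except the 2-fold criterion, which left 10 lower after TNFα against control, 6 lower against TGFß1, 7 higher after IL-6 against TNFα and 1 higher after IL-1β against TNFα. No called value changed sign. The planned normexp correction of the mean signal was not run; normexp of the median signal and the percentile over probes detected on all arrays were chosen after seeing the data. For TGFß1 against control, 0 were higher under normexp, quantile normalization, the percentile over detected probes, the probe mean and the 2-fold criterion (0 lower there too), 2 with slide or slide and run as blocks, and 4 by q-value alone, and 1 was lower under median scaling, without the filter and with only the compared groups. For IL-1β against TNFα, 6 were higher under median scaling, 4 without the filter and 1 with only the compared groups. For IL-1β against TGFß1, 0 were higher under median scaling, no filter, only the compared groups and the 2-fold criterion (0 lower there too), 2 lower with slide or slide and run as blocks and 4 by q-value alone. For IL-6 against TGFß1, 3 were higher under quantile normalization and the percentile over detected probes and 1 under normexp, slide and run as blocks, only the compared groups, the trended prior and the probe mean, while 1 was lower with either block and 4 by q-value alone. Leaving out 1 array gave 14 to 19 lower for TNFα against control, 13 to 20 lower for TNFα against TGFß1, 0 to 2 higher and 0 to 4 lower for TGFß1 against control, 0 to 12 higher for IL-1β and 10 to 17 higher for IL-6 against TNFα, 0 to 1 higher and 1 to 2 lower for IL-1β against TGFß1, and 0 to 2 higher and 0 to 1 lower for IL-6 against TGFß1. With slide and run of label numbers as blocks, 18 were lower after TNFα against control (7.74% of all probes) and 18 lower against TGFß1 (6.97%). The runs were taken from the label numbers, and the labels do not state a pairing. The causes of these changes were not tested.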
